A study of Mus musculus with 2 samples.

Results

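The deposited Aiolos peak list holds 1404 peaks, and 236 of them lie inside gene bodies. Introns hold 190, exons 32, 3' untranslated regions (UTRs) 12 and 5' UTRs 2. They were chosen by the class that the authors' annotation gives each peak, and they make up 16.8% of the list (95% exact Clopper-Pearson interval 14.9 to 18.9). Aiolos, encoded by Ikzf3, was mapped by CUT&RUN, in which protein A fused to micrococcal nuclease cuts the DNA around an antibody bound to the protein. The natural killer (NK) cells came from mouse spleen and were expanded with interleukin-15 at 50 ng/ml, and no fewer than 500000 cells went into each assay. The Aiolos antibody gave 1 library, and 1 control library had no primary antibody, with cells of the same label and culture. The sources used here give no strain, genotype, sex or age. Each group being a single library, replicate error is unknown and the groups were not tested against each other. A peak list holds no expression values, so the cell label was not checked against marker genes.

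Aiolos is a zinc finger protein of the Ikaros family, which is required for lymphocyte development. Its members pair with each other and bind DNA with a GGGAA core, and they recruit both repressing and activating chromatin complexes. Introns are where many lymphocyte enhancers lie, and an enhancer inside 1 gene can act on another. For that reason the gene that hosts a peak and the gene with the closest start are described separately here. The host is the gene of the transcript in which the annotation text places the peak. The assigned gene is the 1 in the gene column of the list, with the distance from the peak edge to its start. Strength is the authors' fold enrichment at the summit over local background. It equals the tag count plus 1 over the background plus 1, so it is lower than the plain ratio of the 2. Each fold is printed with a 95% exact Poisson interval of the recovered tag count at the summit, which covers counting error only.

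Sequence could be read for the few gene-body peaks that overlap a RefSeq promoter window, which runs from 250 bases before to 50 after a gene start on GRCm38.p6, the assembly of mm10. These were 4 of 236 peaks, with 6 overlaps between a peak and a window, and in 1 overlap the window held the peak summit. The 30-base stretches below are shown because they are the sequence read at strong gene-body peaks with the family's GGGAA core, which is in capitals, and at the 1 summit, where capitals mark the summit base and 2 bases on each side.

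Gm26802 window under the exon peak assigned to Fosb, chr7:19300773-19300802, minus strand: ctgcaagtatgtaGGGAAtctactgagtcc

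4930526I15Rik window under the 5' UTR peak assigned to Ppp2r3d, chr9:124423655-124423684, plus strand: cgggacaagtttGGGAAtaatgtctgcggt

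The same window, chr9:124423763-124423792, minus strand: cctgccgtaaaaaGGGAAttggttcagtca

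Gm33989 window at the summit of the exon peak assigned to Zfp619, chr7:39552487-39552516, plus strand: cttctctggttgcAGTGTtgtgtgtaggtt

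The GGGAA core was searched on both strands. It occurred 1 time in the 243 bases shared by the Fosb-assigned peak and the Gm26802 window, 143 bp from the summit. The same 243 positions held it in 55.2% of the 32851 promoter windows. In the 300 bases of the 4930526I15Rik window it occurred 2 times, 266 and 158 bp from the summit, where 62.7% of all windows held it. The AP-1 letters TGANTCA were in none of the 6 overlaps, and they were in 2.11 to 7.81% of all windows at the same positions. The ETS letters GGAAGT, which share GGAA with the core, matched at no position that a GGGAA match covered. They occurred 3 times in the 4930526I15Rik window and 1 time in the Gm30369 window under an intronic Arhgef18 peak, against 23.8% of all windows with at least 1. The Runt letters TGTGGT occurred 1 time, under the same Arhgef18 peak, where 16.8% of all windows held them. These matches describe the letters only.

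Gene-body peaks were of moderate strength. Their fold ran from 3.87 to 14.5 with a median of 5.99 (quartiles 5.06 and 7.59), against a median of 6.60 for the 965 peaks of the authors' promoter class and 5.90 for the 194 distal intergenic peaks. The difference from promoter peaks was -0.14 on the log2 scale, and it was not tested because peaks of 1 library are not replicates. Medians within gene bodies were 6.31 for introns, 5.99 for exons and 5.68 for 3' UTRs, and the 5' UTR peaks reached 4.61 and 9.88. Above 10-fold lay 9 gene-body peaks of 135 such peaks in the list, and 1 gene-body peak was among the 50 strongest. Summits held a median of 7.5 tags, and 187 peaks (79.2%) rested on 10 tags or fewer, so the order of neighbouring folds was not resolved.

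**Figure D1:**
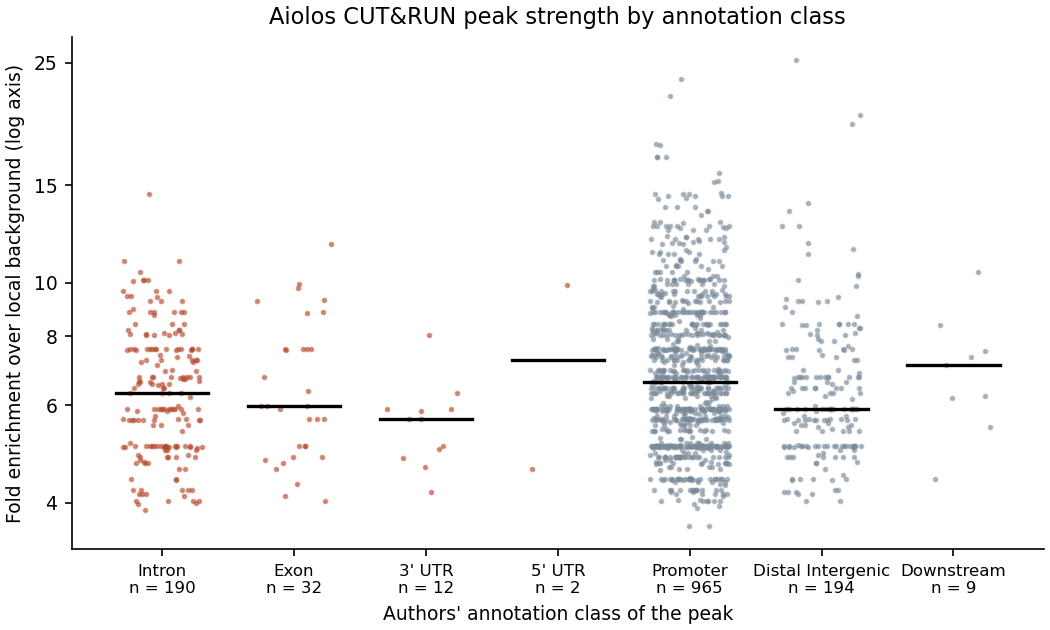
Each point is 1 peak, placed by annotation class on the x axis and by the authors' fold enrichment on a log y axis; the black line is the class median, and gene-body classes are red. Intronic peaks have a median of 6.31 and reach 14.5, while promoter and distal intergenic peaks reach above 20.

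Many peaks shared the same fold, since tag counts are whole numbers and the background often sat at its lowest value. The 236 peaks had 92 distinct folds, and the most repeated, 5.06, stood at 16 peaks with 5 tags each. Background was at the floor of 0.186 tags in 70 gene-body peaks (29.7%, 95% exact interval 23.9 to 35.9), in 231 promoter peaks (23.9%, 21.3 to 26.8) and in 64 distal intergenic peaks (33.0%, 26.4 to 40.1). Width was nearly the same in gene bodies and promoters, with medians of 265 and 267 bp. Exonic peaks had a median width of 367.5 bp and intronic peaks of 259 bp. The widest was in the last exon, number 6 of 6, of a transcript of Setd1b, a histone H3 lysine 4 methyltransferase, at 1019 bp and 5.99-fold (3.32 to 10.1). Next came an intronic peak in Bach2, a lymphocyte repressor of the bZIP family, at 967 bp, then peaks assigned to Parp16 (901 bp), Cd47 (898 bp) and Klrb1b (885 bp).

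The gene-body classes begin where the promoter class ends. Promoter-class peaks reached 2792 bp upstream (Gimap4, 5.42-fold) and 950 bp downstream (Ube2d3, 4.65-fold) of a start. Gene-body peaks began at 3063 bp upstream, with an intronic peak of 5.05-fold at Trim7, and at 1006 bp downstream, with an intronic peak of 10.1-fold at the non-coding gene Gm12596. Within 3 kb of the assigned start lay 43 gene-body peaks (18.2%), all downstream. The median distance was 9.15 kb (quartiles 4.04 and 20.3), 111 peaks lay more than 10 kb away and 23 more than 50 kb away. The farthest was in intron 8 of 8 of Wwox, a very long oxidoreductase gene, 478 kb downstream of the start, at 4.83-fold (2.11 to 10.2). The weakest of all, 3.87-fold (1.62 to 8.71, 4 tags), was in an intron of a transcript without a gene number, 255 kb upstream of its assigned gene Gm765.

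**Figure D2:**
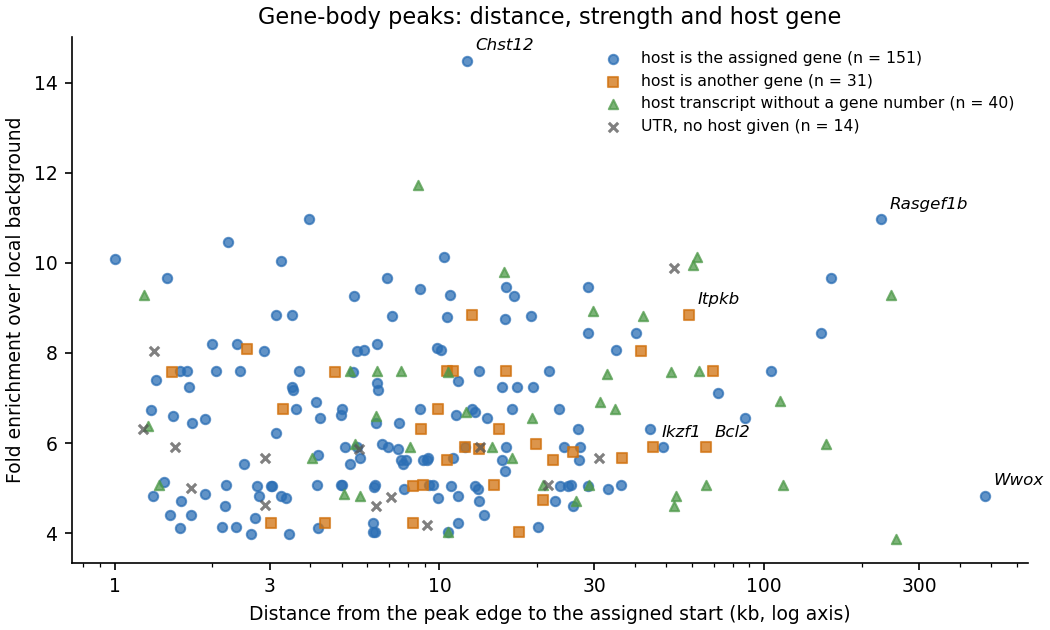
Each point is 1 gene-body peak, with its distance to the assigned start in kb on a log x axis and its fold enrichment on the y axis; colour and shape give whether the host in the annotation text is the assigned gene. Peaks hosted by another gene (orange squares) stay below 9-fold, and Ikzf1, Bcl2 and Itpkb are hosts whose peaks are assigned elsewhere.

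Intronic peaks were mostly in introns of low number. Intron 1 held 90 of 190 (47.4%, 95% exact interval 40.1 to 54.7), intron 2 held 42 (22.1%) and intron 3 held 21 (11.1%). Of the 90, 11 were in transcripts with a single intron. Another 6 were in a transcript labelled Galnt2 but lay far from that gene, as given below. If every intron of a host transcript were equally likely, intron 1 would hold 20.4%. That figure takes no account of length, and intron lengths are not in the files. Peaks in intron 1 had a median fold of 6.55 (quartiles 5.05 and 7.59) and the 100 in later introns 5.90 (5.06 and 7.59). The last intron held 20 peaks of transcripts with more than 1 intron. Intron 10 or later held 12 peaks, up to intron 38 of Nav2, a neuron navigator gene, at 4.40-fold.

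Where the host was the assigned gene and the summit lay within the assigned transcript, 107 peaks in all, the median position was 20.2% of the transcript length from the start (quartiles 10.1 and 38.8). The share of these peaks was 57.0% in the leading 25% of the transcript and 6.54% in the closing 25%. Because the assigned start is the closest start, low positions are partly built into this measure. For example, a peak in intron 12 of 14 of its Aopep host transcript stood at 6.11% of the assigned transcript. Another 36 of the 151 peaks whose host was the assigned gene lay upstream of its assigned start. An intron 1 peak of Rora, a nuclear receptor of innate lymphocytes, was 161 kb upstream of its assigned start at 9.66-fold (5.22 to 16.6). An intron 1 peak of Ccnd3, which encodes cyclin D3, was 28.7 kb upstream at 9.47-fold (5.12 to 16.3).

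**Figure D3:**
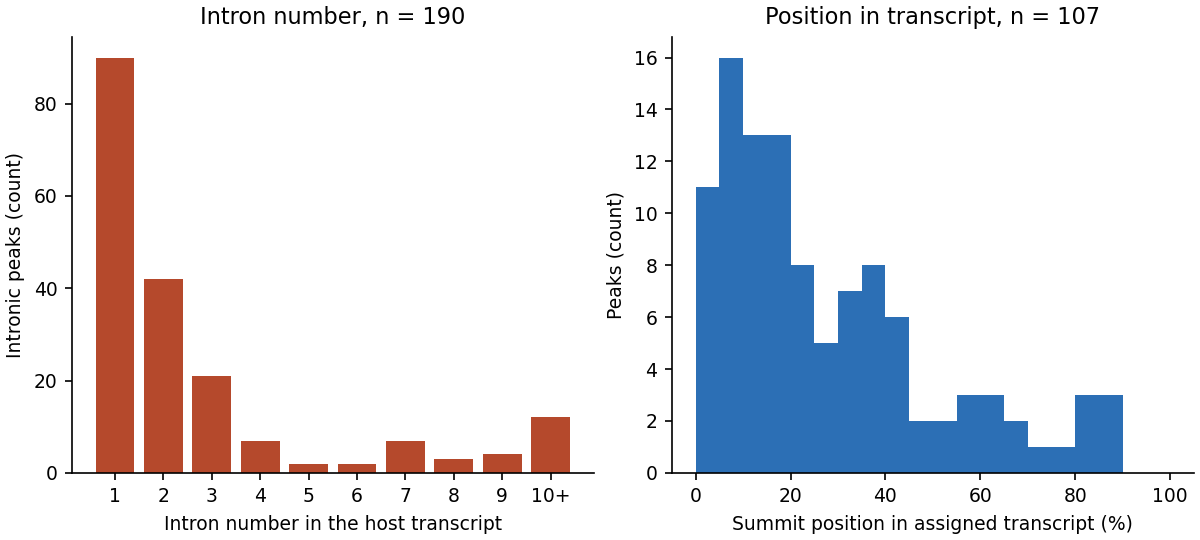
Left, the number of intronic peaks (y axis) by intron number in the host transcript (x axis), with 10 and later pooled; right, the number of peaks by summit position in the assigned transcript as a percentage of its length, for 107 peaks whose host is the assigned gene. Counts fall from 90 in intron 1 to 21 in intron 3, and most summits lie in the leading part of the transcript. The assigned start is the closest start, which favours low positions in the right panel.

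The host in the text was compared with the assigned gene. They were the same in 151 of 236 peaks (64%, 95% exact interval 57.5 to 70.1). In 31 peaks (13.1%) the text named another gene as host. In 40 (16.9%) it named a transcript without a gene number, and the 14 UTR peaks carried no host. Neither of these last groups gave a host gene to compare. Introns matched in 143 of 190 cases (75.3%), exons in 8 of 32 (25%). The low exonic share came from missing gene numbers, which 23 of the 32 host transcripts lacked, while 1 named another gene. In introns 17 lacked a gene number and 30 named another gene. The RefSeq gene table gave a further reading: the summit lay inside the assigned gene in 166 peaks (70.3%), inside other genes only in 41 (17.4%) and inside no gene in 29 (12.3%). Of the 182 peaks whose text gave a host gene, 162 had the summit inside that gene in the table (89.0%). Of the 20 that did not, 12 were among the 31 peaks hosted by another gene. The other 8 were among the 151 hosted by the assigned gene.

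In all, 165 genes were named as host, 154 of them protein-coding, which is 0.703% of the 21900 protein-coding genes of the table. Gene-body peaks were assigned to 218 genes, 195 of them protein-coding (0.89%). Of the hosts, 24 were assigned no peak anywhere in the list, and in 17 of these 24 the table also placed a summit inside the host. The one nearest to the subject of the assay was Ikzf1, which encodes Ikaros, the partner of Aiolos. Intron 8 of 8 of an Ikzf1 transcript held a peak on chromosome 11 at 11763306 to 11763516, assigned to Fignl1, an ATPase gene whose start lay 45.4 kb away. Its summit held 6 tags against a background at the floor, a fold of 5.90 (2.70 to 11.9) with a -log10 q of 4.67. Bcl2, the founding anti-apoptotic gene, hosted a peak of the same fold on chromosome 1 at 106612762 to 106613159, which was assigned to the microRNA gene Mir3473f, 66.1 kb away. Both lay just under the gene-body median of 5.99.

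The strongest peak of this kind was in intron 2 of Itpkb, an inositol trisphosphate kinase gene of lymphocyte signalling, at 8.85-fold (4.66 to 15.6), and it was assigned to Stum at 58.9 kb. A non-coding gene, 4930469K13Rik, hosted a peak of the same fold that was assigned to Lcp2 (SLP-76), an adaptor of immune receptor signalling, 12.6 kb upstream of its start. The peak assigned to Mir6957 at 7.59-fold lay in intron 3 of Grap2, another adaptor of lymphocyte receptor signalling. The non-coding 4930542D17Rik hosted a peak of 8.05-fold assigned to Ccdc54, 41.7 kb away. Gatad2a, a subunit of the NuRD complex, hosted a peak of 7.59-fold in intron 3 that was assigned to Yjefn3, but unlike the genes above it was also assigned promoter peaks. Of all 31 peaks hosted by a gene other than the assigned one, 24 were assigned to protein-coding genes and 4 to microRNA genes.

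In other cases the host in the text was not borne out by the table. The text placed 6 peaks in intron 1 of 15 of a single transcript labelled Galnt2, a glycosyltransferase gene. These peaks spread over 2318 kb of chromosome 8, and the last ended 1198 kb before the start of Galnt2 in the table (124231394 to 124345722). By the table, 4 of them lay in no gene, and 2 lay in Ankrd11, a chromatin regulator gene, to which they were also assigned, at 6.31-fold and 5.80-fold. Another pair stood 1009 bp apart, 19.9 and 20.9 kb upstream of Irf8, an interferon regulatory factor of NK cell and myeloid development. These had folds of 5.99 (3.32 to 10.1, 12 tags) and 4.74 (2.07 to 10, 5 tags). The remaining 2 were assigned to Trhr2 at 7.59-fold and to Cbfa2t3, a transcriptional corepressor, at 6.75-fold and 3.30 kb upstream. Likewise a peak of 8.09-fold in intron 2 of a transcript labelled Slc45a3 lay inside Elk4, an ETS factor gene, and one of 7.59-fold in a transcript labelled Pigk lay inside St6galnac5.

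Among the strongest intronic peaks, Chst12, a sulfotransferase of chondroitin synthesis, had the highest fold, on chromosome 5 at 140517744 to 140518005 in its single intron, at 14.5-fold (8.78 to 22.7, 17 tags), rank 15 of the whole list. Aqr, an RNA helicase of the spliceosome, followed in intron 14 of 34 with 11.0-fold (6.07 to 18.5). Rasgef1b, an exchange factor of Ras family GTPases, had the same fold 229 kb downstream of its start, where the table placed the non-coding A930011G23Rik and Gm35253. Rara, the retinoic acid receptor alpha, had a peak in intron 1 at 10.5-fold (5.91 to 17.3), 2.24 kb from the start. The intervals of all of these overlap.

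Below them, Ppm1h, a protein phosphatase, had 10.1-fold in intron 2, and an intron assigned to the non-coding 3830408C21Rik from 61.9 kb away had the same. Sirt2, a deacetylase, had a pair of peaks in intron 7, at 10.1-fold and 7.24-fold with summits 684 bp apart. They lay on opposite sides of the assigned starts, 3.25 kb upstream and 3.52 kb downstream. Clec11a, a secreted lectin, had 9.67-fold on 20 tags (6.09 to 14.7), so the interval was narrower than its neighbours'. Rgl1, an exchange factor for Ral GTPases, had 9.66-fold, Jakmip1 9.46-fold, Kif21b, a kinesin, 9.43-fold, and Atp11b, a phospholipid flippase, 9.28-fold. Their summits held 10 to 14 tags.

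The 32 exonic peaks lay mostly in transcripts that carry no gene number. There were 23 of these (71.9%, 95% exact interval 53.3 to 86.3), and in 20 of the 23 the peak was in exon 1. Over all exonic peaks, 12 were in transcripts with a single exon. The highest was the 11.7-fold peak (6.63 to 19.5) assigned to Fosb, an AP-1 subunit gene. The host transcript of this peak has no gene number, and the table placed the summit in Gm26802. Others at the top were assigned to Gm17746 (9.96-fold, 60.2 kb away), Tex14, a gene of germ cell bridges (9.79-fold, 15.8 kb), Prep, a peptidase gene (9.30-fold, 245 kb), and Ubald1 (9.28-fold, 1.23 kb). By the table, 16 of 32 exonic summits lay inside the assigned gene, those of Tex14 and Ubald1 among them, and the Prep-assigned summit lay in no gene.

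Of the 12 peaks in 3' UTRs, 6 had the summit inside the assigned gene. Limd1, a LIM domain gene, had the highest fold, 8.05 (4.12 to 14.6). Ier2, an immediate-early gene, had 6.32-fold 1.22 kb from its start, Fosb 5.86-fold, Itpr1, a calcium channel of the endoplasmic reticulum, 5.68-fold, and Shank1 4.19-fold. Lars2, a mitochondrial leucyl-tRNA synthetase, stood apart in depth rather than fold: its summit held 63 tags, the most in the list, over a background of 12.3 tags, where the gene-body median was 0.242. Its fold was 4.81 (3.72 to 6.14) with a -log10 q of 19.4.

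Other 3' UTR summits lay outside the assigned gene. The peak assigned to Cyp17a1 (5.90-fold) lay in Wbp1l and the one assigned to Ifitm5 (5.68-fold) in Pgghg. Those assigned to Mir26b (4.63-fold), Rnf167 (5-fold) and Scimp (5.06-fold) lay in no gene of the table. The 5' UTR peaks were assigned to Lmna, the lamin A gene, at 4.61-fold and 6.38 kb upstream, and to Ppp2r3d at 9.88-fold (5.47 to 16.7). The latter summit lay in 4930526I15Rik and Gm20783, 52.8 kb from the assigned start.

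Of the host genes, 153 had 1 gene-body peak and 12 had 2 or more. Apart from the transcript labelled Galnt2, the most by host in the text was 3, in Stat4, the transcription factor downstream of interleukin-12. Its peaks were 3.55, 11.0 and 26.7 kb downstream of the start in introns 3 and 4, with folds of 7.17 (3.55 to 13.4), 5.68 (2.81 to 10.6) and 6.31 (3.23 to 11.4). Fli1, an ETS factor of blood cells, had intron 1 peaks of 8.43-fold at 40.2 kb and 6.53-fold at 1.90 kb, the latter on 17 tags. Inpp5d, which encodes the SHIP1 phosphatase that restrains lymphocyte signalling, had 7.24-fold in intron 2 and 5.06-fold in intron 1.

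Elmo1 and Prex1, which activate Rac GTPases, had pairs of 5.05-fold and 4.41-fold and of 5.63-fold and 4.83-fold. Rnf157 had 8.11-fold and 7.33-fold, Tex14 8.07-fold and 6.31-fold, and Otulin, a deubiquitinase of linear chains, 6.63-fold and 5.90-fold. Not counted by host, exonic peaks of 9.79-fold and 5.68-fold in transcripts without a gene number were also assigned to Tex14, with summits inside it. In Lrrk1, a kinase gene, the folds were 7.59 and 5.05, and in Osbpl3, an oxysterol-binding protein gene, 4.15 and 3.99. The table placed the weaker peaks of Lrrk1 and Otulin in no gene. Within each of these genes the intervals overlapped. Another peak of the list within 5 kb was found for 18 gene-body peaks (7.63%), 93 promoter peaks (9.64%) and 29 distal intergenic peaks (14.9%). Gene-body peaks occurred on 19 chromosomes, with the lowest count, 4 of 48 peaks, on chromosome 12 and the highest, 23, on chromosomes 7 (of 149) and 11 (of 151).

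**Figure D4:**
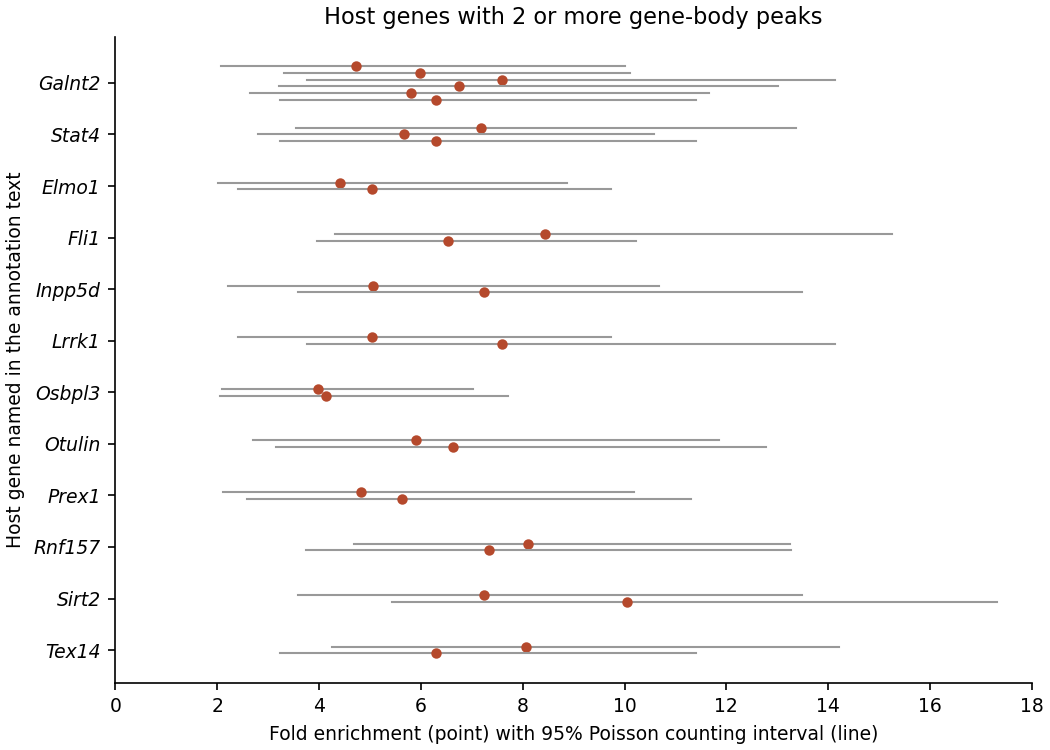
Points give the fold enrichment (x axis) of each gene-body peak in the 12 host genes with 2 or more, and grey lines the 95% exact Poisson counting interval. Within each gene the intervals overlap, and the 6 peaks of the transcript labelled Galnt2 lie between 4.74 and 7.59.

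Gene lists for NK cells and other lineages were counted by host and by assignment of gene-body peaks, leaving out peaks of other classes. Over the 306 distinct genes of the 15 lists, 14 (4.58%) were hosts and 19 (6.21%) were assigned, against the 0.703% and 0.89% over all protein-coding genes. The lists were chosen with earlier results of these data known, so their shares are a description. Host genes are also long, as given further below, and the part of length in these shares was not tested.

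Of 33 NK transcription factors, 3 were hosts. Beside Rora these were Runx1, a Runt family factor, with 6.21-fold (3.07 to 11.6) in intron 2, and Bach2 with 7.37-fold (4.33 to 11.9) in intron 1. Irf8 was assigned the pair in the transcript labelled Galnt2. Bach2 was also the 1 host among 27 bZIP factors outside the AP-1 core. Of the 12 AP-1 core genes none was a host in the text, and Fosb and Jun were assigned gene-body peaks. The Jun-assigned summit, 114 kb upstream at 5.06-fold, lay in the antisense gene Junos in the table. Of the 5 Ikaros family genes Ikzf1 was a host and none was assigned a gene-body peak.

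Among 36 NK receptor and adaptor genes, Cd160, Klre1 and Klrb1c were hosts. Cd160, an immunoglobulin-like receptor, had 5.13-fold (2.35 to 10.3) in intron 1, and Klre1, a lectin-like receptor, 5.05-fold (2.41 to 9.73) in intron 2. The peak in a transcript labelled Klrb1c, which encodes NK1.1, had 4.78-fold (2.09 to 10.1), and the table placed it in Gm34755. Klrb1b was assigned an exonic peak of 5.68-fold 16.7 kb upstream. Each of these summits held 5 to 8 tags.

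In the signalling lists, Stat4 was the 1 host of 36 cytokine receptor and JAK-STAT genes. Of 23 NFAT and NF-kB pathway genes, Prkch, a protein kinase C of lymphocytes, had 7.10-fold (3.52 to 13.2) in intron 3, 71.8 kb from the start, and Nfatc1 had 4.83-fold in its last intron. Prkcq, a protein kinase C of T and NK cell activation, was assigned an exonic peak of 5.06-fold. Of 21 apoptosis regulators, Bcl2 was joined by Bcl2l11, the BIM gene, with 5.05-fold in intron 3. Itga1, the integrin alpha 1 gene, was the 1 host both of 23 adhesion genes and of 7 matched markers of type 1 innate lymphoid cells, with 8.05-fold (4.12 to 14.6) in intron 1.

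None of 20 cytotoxic genes was a host, and the peak assigned to Gzma, the granzyme A gene, lay in intron 11 of 11 of Cdc20b, 13.3 kb from the Gzma start, at 5.86-fold (2.68 to 11.8). Of 17 cytokine and chemokine genes, Ccl1 was named as host of a peak of 5.90-fold, which lay 24.1 kb upstream of its start and in no gene of the table. The 20 T cell markers had no host, and the peak assigned to Cd5 lay in intron 2 of Vps37c, 12 kb away, at 5.90-fold. Neither the 18 B cell markers nor the 18 myeloid markers included a host or a gene assigned a gene-body peak. Over all protein-coding genes the shares were 0.703% for hosts and 0.89% for assigned genes. A zero in lists this short therefore says nothing about their genes.

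Promoter peaks in the host genes were counted next. Of 165 host genes, 154 of them protein-coding, 13 also had a peak of the promoter class (7.88%, 95% exact interval 4.26 to 13.1). The share was 3.95% over protein-coding genes, a set that leaves out the other hosts. It was 19 of 179 genes assigned a distal intergenic peak (10.6%, 6.51 to 16.1). Within the 13 host genes with a promoter peak, the strongest gene-body peak was higher in 5, lower in 7 and equal in 1. All 13 pairs of intervals overlapped. Jakmip1 had 9.46-fold in its intron and 4.22-fold at its promoter. Hdac4, a class IIa histone deacetylase, had 5.90-fold in its intron and 6.91-fold at its promoter 116 kb away, the widest separation. Pik3r1, a regulatory subunit of PI3 kinase, had 7.24-fold and 8.43-fold, Runx1 6.21-fold and 6.95-fold, Klre1 5.05-fold and 6.97-fold, and Dusp1, a MAP kinase phosphatase, 8.20-fold and 5.99-fold. The table placed the Dusp1 intronic summit outside any gene, 6.44 kb upstream of the start.

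Host genes were long. The 154 protein-coding hosts had a median length of 81.8 kb (quartiles 31.7 and 131), against 19.1 kb for the 866 protein-coding genes with a promoter peak and 17.1 kb for all protein-coding genes. With protein-coding genes ranked by length and split into 4 classes of equal number, the share of genes that were hosts was 0.0548%, 0.274%, 0.621% and 1.86% from the shortest to the longest, with 95% exact intervals that did not overlap between the second and the longest class (0.153 to 0.452 and 1.52 to 2.26). Per Mb of gene sequence the order did not rise: 0.220, 0.253, 0.234 and 0.142 peaks. These counts follow the host in the text, so the 117 peaks of the longest class include the 6 labelled Galnt2. Peaks near a start belong to the promoter class and were not counted, while gene length was not reduced for this. The share with a promoter peak was 2.52%, 4.81%, 4.68% and 3.82%.

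**Figure D5:**
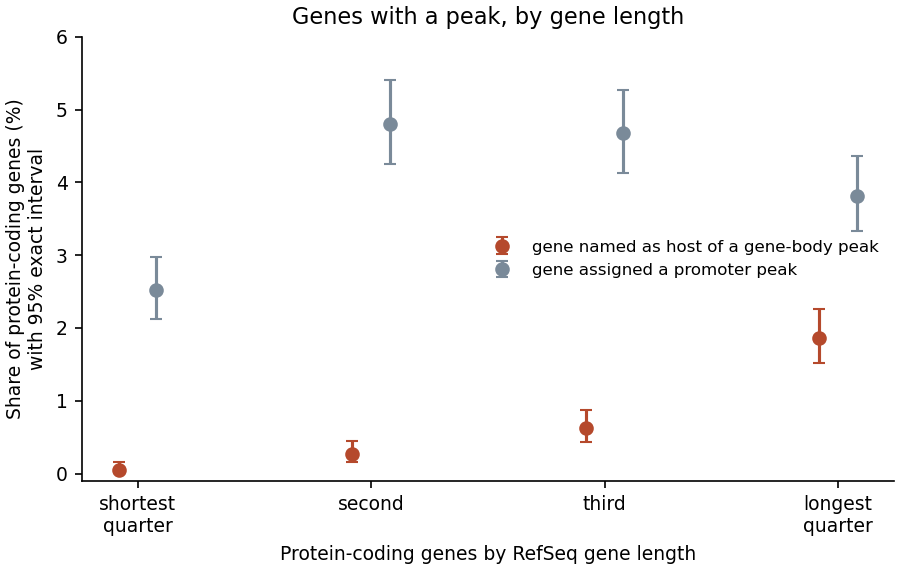
Share of protein-coding genes (y axis, percent) named as host of a gene-body peak (red) or assigned a promoter peak (grey), in 4 equal classes of RefSeq gene length (x axis), with 95% exact intervals as bars. The host share goes from 0.0548% to 1.86%, while the promoter share lies between 2.52% and 4.81%.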

How the data were processed

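The 1 deposited peak list for the Aiolos antibody library was the starting point. Bowtie2, SAMtools, Picard, MACS2 and the build mm10 are named per the submitters' processing notes, without roles. How the control library entered and which q cutoff applied is not given in the sources used here. Per the file headers, deposited columns hold a signal value, read here as the fold enrichment ratio, the -log10 of its p-value and q-value, a score of 10 times the -log10 q without decimals, and an annotation, gene, width, summit offset and distance in bp. A whole tag count and a background were solved for each of 1404 peaks from the fold and the p-value (largest error 1.75e-05 in -log10 p), a step tested on simulated data. The fold was taken as the count plus 1 over the background plus 1. No sequencing totals were used, so depth is known only as tags per summit.

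Gene-body classes, hosts and intron numbers were parsed from the authors' annotation text. Summits were placed in genes of RefSeq GRCm38.p6 by coordinate. Coordinates are 1-based. Shares have exact Clopper-Pearson intervals. No test was run, since peaks of 1 library are not replicates. The members and lists were chosen with earlier results of these data known. Named were the 20 strongest peaks with ties, all UTR peaks (1 is not reported here), all list genes, hosts of 2 or more, the 8 strongest with differing host, the 5 strongest exonic, widest and farthest peaks, and the extremes; other genes were named after their values were seen. Python 3.11.15, pandas 2.3.3 and scipy 1.17.1 were used.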

Additional observations from a re-analysis of the deposited data

How the results depend on the processing

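Across 7 results and 49 alternatives, 43 values stayed within the 95% interval of the reported value. Only the gene-body minus promoter difference could change sign, and it stayed negative. Leaving out mitochondrial, Y and unplaced sequences kept all 236 gene-body peaks, so little could move in that setting. Keeping only peaks not below the median -log10 q, or only peaks above the median fold, removes weak peaks and raised the median gene-body fold to 7.59 in both cases. With log2 of the -log10 q in place of log2 fold, the gene-body minus promoter difference was -0.27. The host was the assigned gene in 75.3% of intronic peaks alone and in 70.3% by overlap with the gene table. Defined as summits in a gene of the table over 3000 bp from the start, gene-body peaks were 14.1% of the list. The intron 1 share ran from 45.7% to 51.6%. Leaving out the Galnt2-labelled transcript or peaks outside table genes was chosen after seeing the data. No paired analysis was possible because no result comes from a test and each group is a single library. With a median of 7.5 tags, single folds are resolved only to about their printed intervals.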

Other observations

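The intronic peak of 6.91-fold (3.99 to 11.3) that the annotation assigned to Dad1, 31.2 kb away, had its summit in the T cell receptor alpha constant gene Trac. It was named after its values were seen.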
